A study of Bos taurus with 6 samples.

Results

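Summed over their cytosines, some stretches of the cattle genome read neither methylated nor unmethylated in blood but in between, in every animal measured. These intermediate windows are 1000 bp windows, on a grid counted from base 1 of autosomes 1 to 29 (build UMD3.1), whose methylation level lay from 30 to 70% in each library that measured them. A library measured a window where it held at least 3 cytosines and 50 read calls there, and a window needed at least 2 measuring libraries in each group. Windows with 1000 or more calls in all 6 libraries were dropped. The rule found 1241 windows, 3.13% of the 39647 windows that met the same demands on coverage at any level, among 409025 autosomal windows with a call. The levels themselves chose the windows, so a level between 30 and 70% is no result here.

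Blood DNA of 6 adult bulls was profiled by reduced representation bisulfite sequencing (RRBS), in which DNA is cut by the enzyme MspI at CCGG and bisulfite turns cytosines without a methyl group into bases read as thymine. Among the 3 Creole bulls, of cattle kept in the American tropics, Creole 1 was of the breed Sanmartinero, and the others, Creole 2 and Creole 3, were Costeno con Cuernos. The 3 Spanish bulls came from different Iberian breeds: Spanish 1 was a Retinta, Spanish 2 was of the breed Asturiana de los Valles, and Spanish 3 was a Lidia. No treatment is named, and each library came from 1 animal, so spread within a group is also spread between breeds. Creole DNA was extracted with the UltraClean BloodSpin kit and Spanish DNA with the QIAamp kit, and the lane marks also differ by group, so kit, lane and origin cannot be told apart.

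In mammals most CpG cytosines, those followed by a guanine, are methylated, whereas those in many CpG islands at gene starts are not. An intermediate average is known from imprinted control regions, where the maternal and paternal copies carry opposite marks, and from sequence methylated in some blood cell types and not in others. Such an average can also arise where fully methylated and fully unmethylated cytosines lie side by side in one window. In RRBS, cytosines at the ends of MspI fragments are partly copied in from unmethylated nucleotides during end repair and then read as unmethylated whatever their state in the animal.

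Autosomal calls per library ran from 38633007 in Spanish 1 to 80245850 in Creole 1. Creole 1 stood apart, with 3391903 autosomal cytosines covered against 669467 to 1632409 in the other 5 libraries. It measured 1217 of the 1241 windows, and without it the rule found 445. Mean shares of intermediate cytosines and of left-out libraries are therefore also given without it. Of the 1241 windows, 188 were measured in all 6 libraries, 370 in 5 and 683 in 4.

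The level of the intermediate windows sat above the middle of the range in each of the 6 libraries. The rule holds all libraries to the same limits, which favours similar medians. All tested windows had medians of 67.1% to 71.4% per library. The median level was 57.0%, 59.8% and 60.0% in Creole 1, 2 and 3, against 60.0%, 60.5% and 62.7% in Spanish 1, 2 and 3. The upper quartile was 66.7% in 5 libraries and 63.5% in Creole 1. The values gathered at simple fractions. From 10.2% (Creole 1) to 39.2% (Spanish 3) of a library's values lay within 1 point of 66.7%, against 2.66% to 5.37% of the values of all tested windows. From 2.14% to 11.6% lay within 1 point of 33.3%, and from 5.04% to 8.96% within 1 point of 50%. The 3 windows nearest to 30% on the inside had a lowest library at 30.02%, 30.1% and 30.2%, and the 3 nearest on the outside had 29.97%, 29.93% and 29.87%. At the upper limit, 6 windows had a library at 70% by equality of the whole counts, and the nearest outside had 70.02%, 70.04% and 70.04%.

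**Figure D1:**
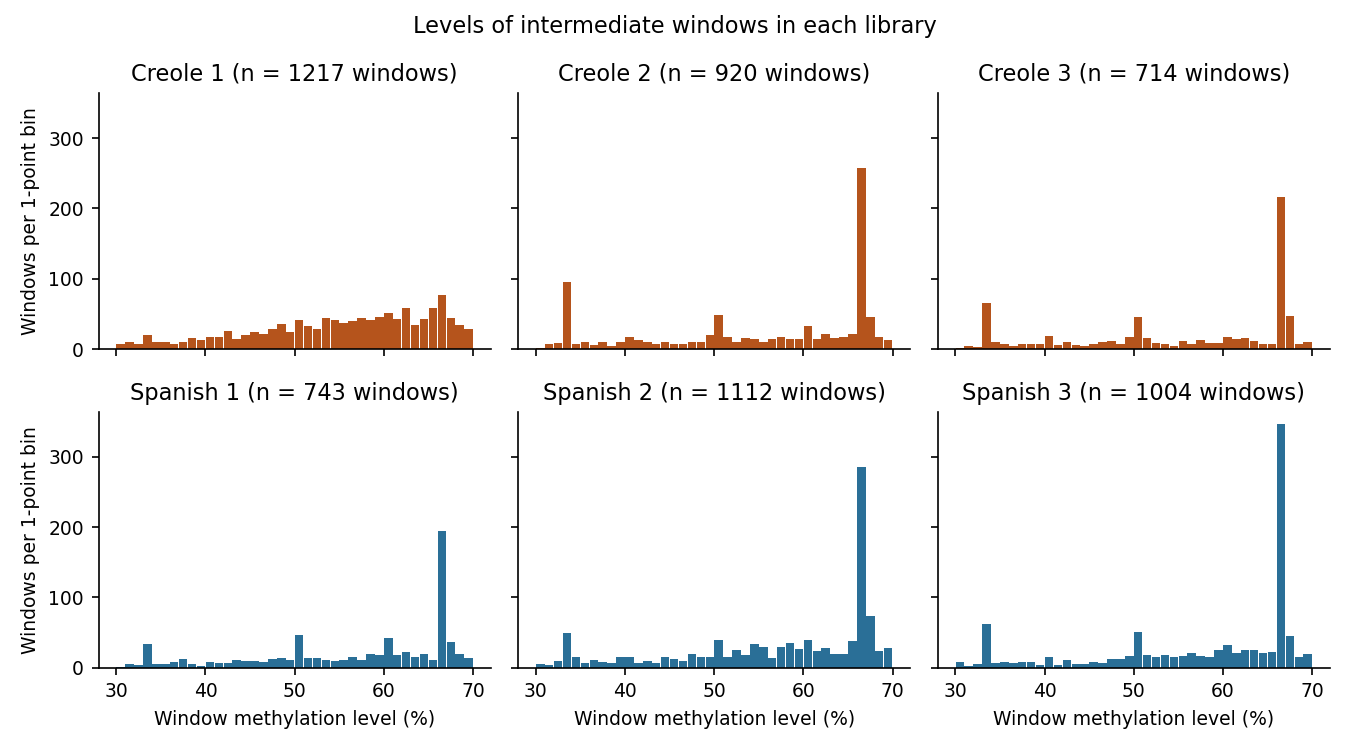
Methylation level of the intermediate windows in each library (x axis, percent) against the number of windows per bin of 1 point (y axis), with Creole libraries above Spanish ones. A peak at 66.7% stands out in 5 libraries and is lowest in Creole 1, where 10.2% of values lie within 1 point of it.

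The peaks at simple fractions came with windows of few cytosines. Exactly 3 cytosines were covered in 15.6%, 42.4% and 41.5% of the intermediate windows of Creole 1, 2 and 3 and in 29.2%, 27.9% and 44.4% of those of Spanish 1, 2 and 3, against 1.13% to 7.02% of all tested windows. In these windows, the commonest pattern outside Creole 1 was 2 cytosines at 90% or more beside 1 at 10% or less, which held for 63.3% to 72.4% of them in 5 libraries and for 32.6% in Creole 1. The opposite pattern, 1 high cytosine beside 2 low ones, held for 3.16% (Creole 1) to 24.9% (Creole 2). Where a single cytosine was low, it was the first or the last of the 3 in 98.4% to 99.4% of windows per library and the middle one in 1 to 3 windows. This order is that of the 3 cytosines within the window and does not give their place on an MspI fragment.

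A pair of windows with a small range over 6 libraries show the pattern cytosine by cytosine. At chr21:15499001-15500000 the levels were 62.6%, 66.7% and 66.6% in Creole 1, 2 and 3, against 66.7%, 66.7% and 66.6% in Spanish 1, 2 and 3. The cytosine at 15499718 read 0% in all 6 libraries. The cytosine at 15499722 read 100% in all 6, and the one at 15499848 read 87.4% in Creole 1 and 100% in the other 5. The window chr6:26982001-26983000 was built alike: the cytosine at 26982813 read 0% and that at 26982876 read 100% in every library, and that at 26982934 read 84.9% in Creole 1 and 100% elsewhere. No cytosine in these 2 windows read between 30 and 70% in any library, although both windows did. Of 147 intermediate windows with the same 3 cytosines in 4 or more libraries, 21 (14.3%) had the same single cytosine low and the others high in each of those libraries.

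Over all intermediate windows, most single cytosines were not intermediate. Among cytosines with 10 or more calls, 10.9% ± 5.05 (SD, n = 6 libraries) read 30 to 70% in intermediate windows, against 3.81% ± 3.03 in the other tested windows. The share was 21.0% in intermediate windows of Creole 1 and 8.86% ± 0.993 (SD, n = 5) over the other 5 libraries, against 9.91% and 2.59% ± 0.533 in the other tested windows. Levels of exactly 0 or 100% made up 66.1% ± 13.0 of cytosines in intermediate windows and 86.7% ± 8.41 in the other tested windows. Without Creole 1 these shares were 71.2% ± 3.79 and 90.1% ± 2.01. The intermediate windows were thus largely mixtures of all-or-none cytosines, with more intermediate cytosines than other windows in each of the 6 libraries. A mean of 0 and 100% makes a window intermediate by arithmetic, and the excess of intermediate cytosines was not tested because the window levels used the same calls.

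**Figure D2:**
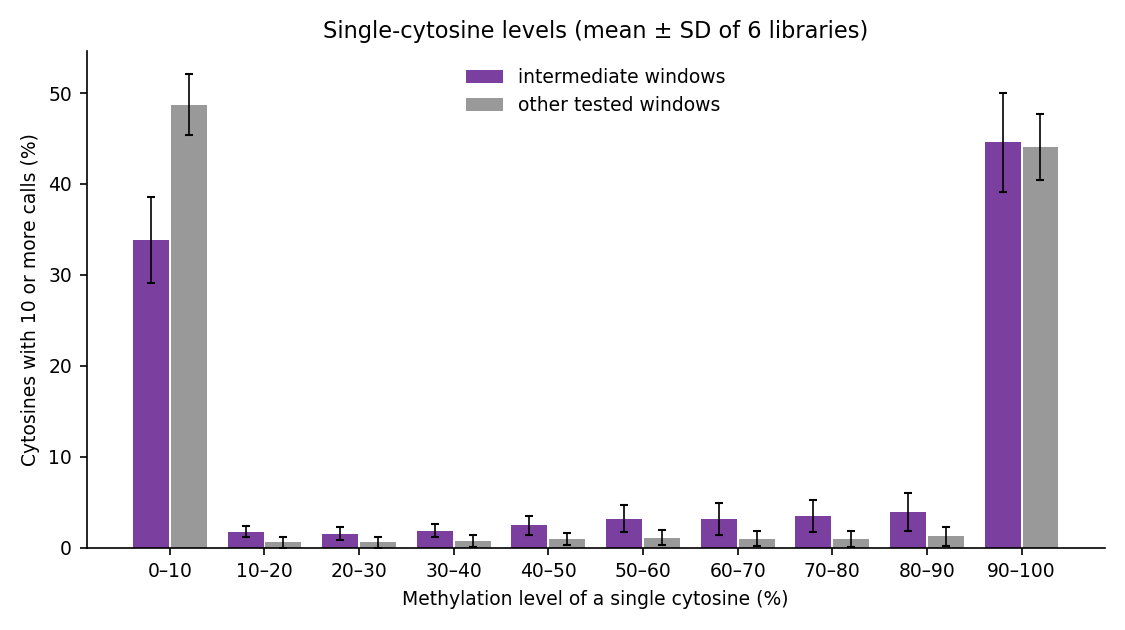
Methylation level of single cytosines with 10 or more calls (x axis, percent, in steps of 10 points) against their share (y axis, percent), as the mean and SD of 6 libraries, for intermediate windows and other tested windows. Both sets pile up in the outermost bins, and from 30 to 70% the intermediate windows hold 10.9% of cytosines against 3.81%.

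Counted by window, 363 of 1239 intermediate windows with at least 3 deep cytosines, those of 10 or more calls (29.3%), had no intermediate cytosine in any library, beside 34.3% of all tested windows. At the other end, 0 intermediate windows had 50% or more of their cytosines at 30 to 70% in every library. A share of 25% or more was intermediate in every library in 10 windows (0.807%), beside 49 of all tested windows (0.124%). Windows with more cytosines held more intermediate ones. The share of cytosines at 30 to 70% was 5.69% ± 4.55 in the 486 windows with 3 to 4 cytosines per library, 7.94% ± 5.96 in 406 windows with 5 to 9, 12.2% ± 5.46 in 221 windows with 10 to 19 and 15.7% ± 4.30 in 128 windows with 20 or more (SD, n = 6 libraries). Neighbouring classes differed by less than 1 SD over 6 libraries. Without Creole 1 the shares were 3.88% ± 1.12, 5.57% ± 1.61, 10.0% ± 1.28 and 14.1% ± 1.95 in the same order (SD, n = 5), and in Creole 1 they were 14.8%, 19.7%, 23.1% and 23.7%.

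**Figure D3:**
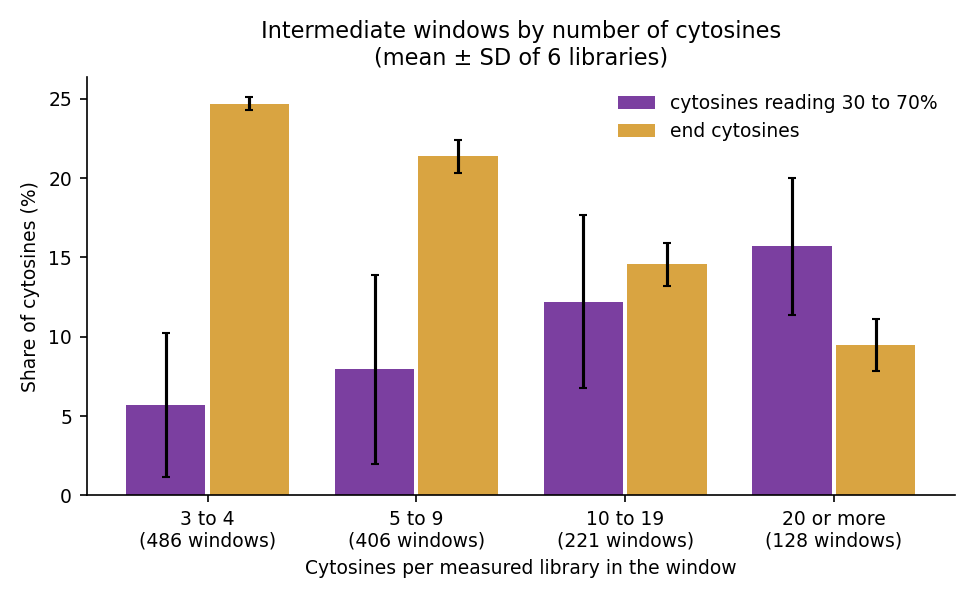
Share of cytosines (y axis, percent) that read 30 to 70% and that were called end cytosines, in intermediate windows grouped by cytosines per measured library (x axis), as mean and SD of 6 libraries. The intermediate share is 5.69% in the smallest windows and 15.7% in the largest, while the end share is 24.7% and 9.50%.

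Cytosines called as ends made up a larger part of the intermediate windows than of others. End cytosines, called from the last top-strand or first bottom-strand cytosine of a covered stretch, were 16.8% ± 1.37 of cytosines in intermediate windows and 9.49% ± 0.895 in other tested windows (SD, n = 6 libraries). The comparison was not matched for size. Intermediate windows held a median of 4 to 8 cytosines per library, against 9 to 24 in all tested windows. In intermediate windows of 20 or more cytosines the end share was 9.50% ± 1.64. The call needs the strand, which could not be read for 23.6% to 26.5% of the cytosines of intermediate windows per library, so some ends stayed in. Cytosines of unread strand were also passed over, so some cytosines inside a stretch may have been called ends. One called an end, chr29:19420890, read 31.2% to 86.2%, and covered cytosines of unread strand followed at 19420927, 19420932 and 19420964. Without end cytosines, 658 of the 1241 windows were still measured, and 313 of those (47.6%) stayed in the range. Of the 658, 334 had a library above 70% and 16 had one below 30%. The other 583 windows fell short of the demands on coverage. Over what was left of these 583, counting libraries with 10 or more calls, the median level was 78.3%, 99.0% and 99.8% in Creole 1, 2 and 3 and 97.9%, 95.1% and 100% in Spanish 1, 2 and 3, against 57.6% to 66.7% with ends. From 64.7% to 74.7% of these values per library were above 70%.

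Another removal, added after the data were seen, took the outermost CpG of each covered stretch on both strands. Stretches were marked there without regard to strand, so this second removal does not contain the first. It left 385 windows measured and 125 of those (32.5%) in the range. Both removals kept 92 of the 1241 windows (7.41%), 38 of them measured in all 6 libraries. These 92 windows had a median of 16 cytosines and 607 calls per library, against 5 cytosines and 201.5 calls in the other 1149. Their median level was 50.2% against 57.4%, and 18.0% ± 5.33 of their cytosines read 30 to 70% against 9.65% ± 5.10 (SD, n = 6 libraries). Without Creole 1 these shares were 16.2% ± 3.43 against 7.58% ± 0.607 (SD, n = 5). Having more cytosines makes a window more likely to stay measured, so the removal itself favours large windows.

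The 2 strands of a CpG are usually methylated alike. In intermediate windows, the 2 cytosines of a CpG away from ends differed by over 50 points in 30.5% ± 4.52 of pairs, against 13.8% ± 2.63 in other tested windows (SD, n = 6 libraries). At end CpGs the shares were 71.8% ± 2.52 and 47.0% ± 3.27. Between libraries, the same cytosine away from ends differed by 90 points or more in 7.94% of cases in intermediate windows and 8.22% in others, as means over 15 pairs of libraries, with intermediate windows higher in 6 of 15 pairs. It differed by 10 points or less in 55.1% against 74.5%. These shares across pairs of libraries are descriptions, since the pairs share animals. The reads carry no molecular identifiers and were amplified by PCR, so calls at a cytosine may stem from few DNA molecules. The part of this in the all-or-none readings was not tested.

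Libraries that took no part in choosing a window give its level independently of the rule. Libraries with 10 to 49 calls in an intermediate window were not used to choose it. Of 386 such values, 287 read 30 to 70%, a mean of 73.6% ± 9.81 per library (SD, n = 6), against 19.9% ± 3.58 in other tested windows. The share was 80%, 80% and 75% in Creole 1, 2 and 3 and 73.9%, 54.3% and 78.5% in Spanish 1, 2 and 3 for intermediate windows. It was 26.4%, 18.9% and 16.7% and 21.5%, 17.7% and 18.1% in other tested windows, in the same order of libraries. Spanish 2 was lowest, with 19 of 35 values (95% Wilson interval 38.2 to 69.5%), and Creole 1 had only 10 values (49.02 to 94.3%). Intermediate windows were higher in 6 of 6 libraries, by 36.5 to 61.1 points (exact sign-flip permutation test over libraries, two-sided, p = 0.03125, the smallest that 6 libraries allow). Intervals cover counting error only. Each of the other windows had a measuring library outside the range, so a positive difference follows wherever window levels repeat between animals. No more than such repetition is read from the p.

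The rule was also applied to 5 libraries at a time and the windows read in the sixth at full depth. In the left-out library, 78.2% ± 4.90 of the 421 to 491 chosen windows read 30 to 70%, against 18.7% ± 3.49 of the other tested windows (SD, n = 6 libraries). The difference was 53.2 to 64.0 points and positive in 6 of 6 libraries (exact sign-flip permutation test, two-sided, p = 0.03125). For Creole 1 alone the shares were 87.6% against 23.6%, and over the other 5 libraries 76.3% ± 1.77 against 17.8% ± 2.84. Chosen windows that missed the range mostly lay above it, 9.50% to 18.8% of them per library, with 2.85% to 7.54% below. Outermost CpGs were called only at gaps in coverage, and end cytosines only at gaps between cytosines of the same read strand. Any fragment ends inside such a stretch stayed in. The shares stayed far apart when end cytosines or outermost CpGs were taken out before the choice. They were 74.9% ± 8.48 against 13.9% ± 3.19 without end cytosines, and 67.6% ± 7.79 against 13.7% ± 3.30 without outermost CpGs, again higher in 6 of 6 libraries (exact p = 0.03125 for each). A level of 30 to 70% summed over a window thus recurred in an animal not used to find it. Each of the other windows had at least 1 choosing library outside the range. A positive difference therefore follows wherever window levels repeat between animals. Recurrence of a sum also arises where the same all-or-none cytosines are read again, so it does not show intermediate single cytosines. The 6 choices share libraries, so the 6 differences behind each p are not independent, and no conclusion is drawn from these p-values. Chosen and other windows also differed in size. With all cytosines, chosen windows held fewer cytosines than others (a median of 7 to 16 against 11 to 30 per library). Without outermost CpGs they held more in Creole 2 (16 against 12) and Creole 3 (13 against 11). There they were also deeper in all 6 libraries. The medians were 2375 against 598 calls in Creole 1 and 436 against 423 in Spanish 3.

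**Figure D4:**
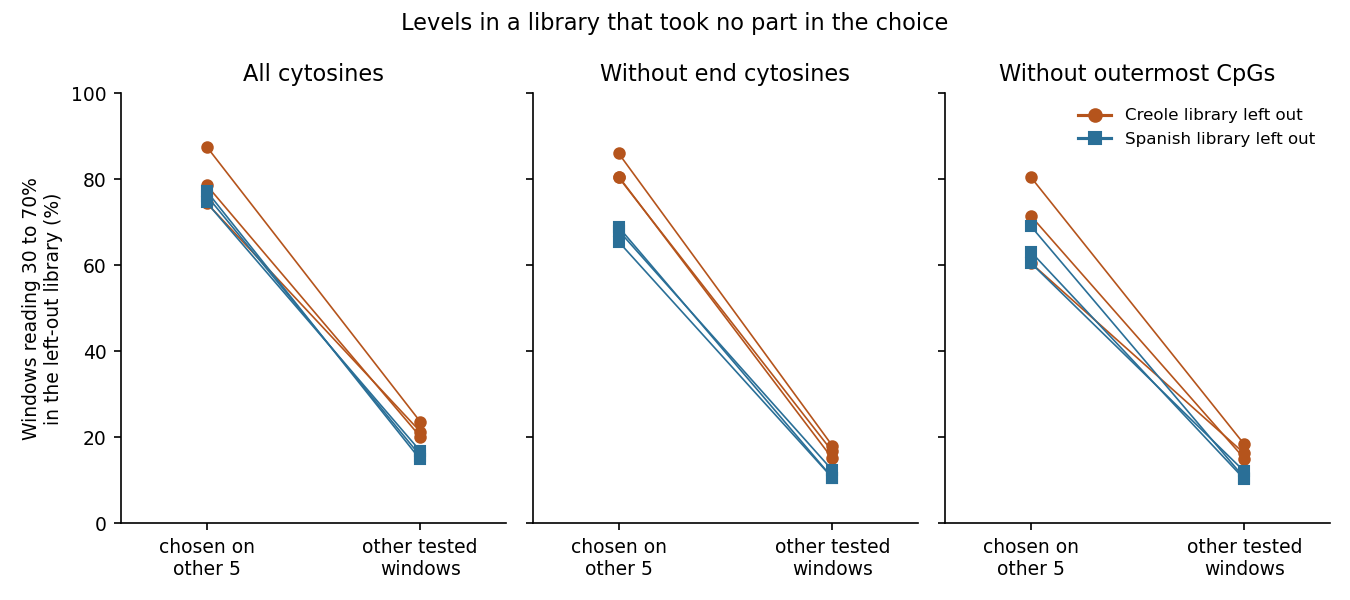
Share of windows at 30 to 70% in the library left out of the choice (y axis, percent), for windows chosen on the other 5 libraries and for other tested windows (x axis), with 1 line for each library, for all cytosines, without end cytosines and without outermost CpGs. All chosen points lie between 60.6% and 87.6% and all others between 10.2% and 23.6%.

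Within the range, levels varied between animals. The range over the measuring libraries had a median of 20.2 points and ran from 0 to 38.7 points. It was 10 points or less in 226 windows (18.2%) and over 30 points in 343 (27.6%). All libraries lay between 40 and 60% in 51 windows. Among windows of all 6 libraries, the smallest range was 3.2 points, at chr19:61930001-61931000, with 59.6%, 60.7% and 61.3% in Creole 1, 2 and 3 and 62.6%, 59.4% and 62.2% in Spanish 1, 2 and 3. Its groups overlapped, and from 0 to 6.67% of its deep cytosines were intermediate. At chr13:49000001-49001000, with a range of 4.3 points, the levels were 59.0%, 62.8% and 60.7% in Creole 1, 2 and 3 against 60.0%, 62.7% and 63.3% in Spanish 1, 2 and 3. There 20.0% to 38.5% of deep cytosines were intermediate per library. The single cytosine at 49000627 read 52.5%, 62.6% and 67.1% in Creole 1, 2 and 3 and 53.3%, 63.8% and 69.0% in Spanish 1, 2 and 3. By contrast, the end cytosine at 49000728 read at most 1.90% in any library, and without ends 5 of 6 libraries lay above 70%, with Spanish 1 at 69.7%. Of the windows with a small range, chr10:59485001-59486000 also lost the range without ends, at 68.6% to 84.5%.

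Among windows measured in all 6 libraries, the 5 widest ranges lay between 34.7 and 37.8 points. At chr2:100648001-100649000 the levels were 69.6%, 31.9% and 45.2% in Creole 1, 2 and 3 and 60.4%, 66.9% and 62.4% in Spanish 1, 2 and 3. At chr21:60864001-60865000 they were 58.6%, 32.4% and 31.2% in the Creole animals, in the same order, and 45.7%, 39.4% and 66.4% in the Spanish animals. The Spanish animals all lay from 60.4 to 66.9% in the first of these windows, whereas both groups spread widely in the second. The first had 0 cytosines covered in all 6 libraries and the second had 22, so the levels of the first come partly from different cytosines in different animals. The other wide windows were chr3:1024001-1025000, chr2:128530001-128531000 and chr14:6345001-6346000, the last with 3 cytosines in 5 libraries and Creole 3 at 33.3% against 66.2% to 68.0% elsewhere. These 3 shared 14, 2 and 0 cytosines over all 6 libraries, in the order named. None of the 5 stayed in the range without end cytosines, the last because it was no longer measured.

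The 15 windows with the most cytosines covered in all 6 libraries held 17 to 34 of them. Of the 15, 7 stayed in the range under both removals and 8 did not. Their cytosines are less exposed to a change of cytosines from library to library. The fullest, chr29:19447001-19448000 with 34 shared cytosines, read 62.2%, 56.8% and 52.3% in Creole 1, 2 and 3 and 44.8%, 46.4% and 62.6% in Spanish 1, 2 and 3, and stayed in the range under both removals. At chr27:35834001-35835000 (22 shared cytosines) the levels were 52.1%, 46.0% and 49.2% in the Creole animals and 51.1%, 60.1% and 58.6% in the Spanish animals. At chr7:71916001-71917000 (19 shared cytosines) they were 60.3%, 59.6% and 68.5% in the Creole animals and 56.3%, 64.6% and 67.0% in the Spanish animals. The groups overlapped in all 3 of these windows, which are among the 7 that stayed in the range under both removals.

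**Figure D5:**
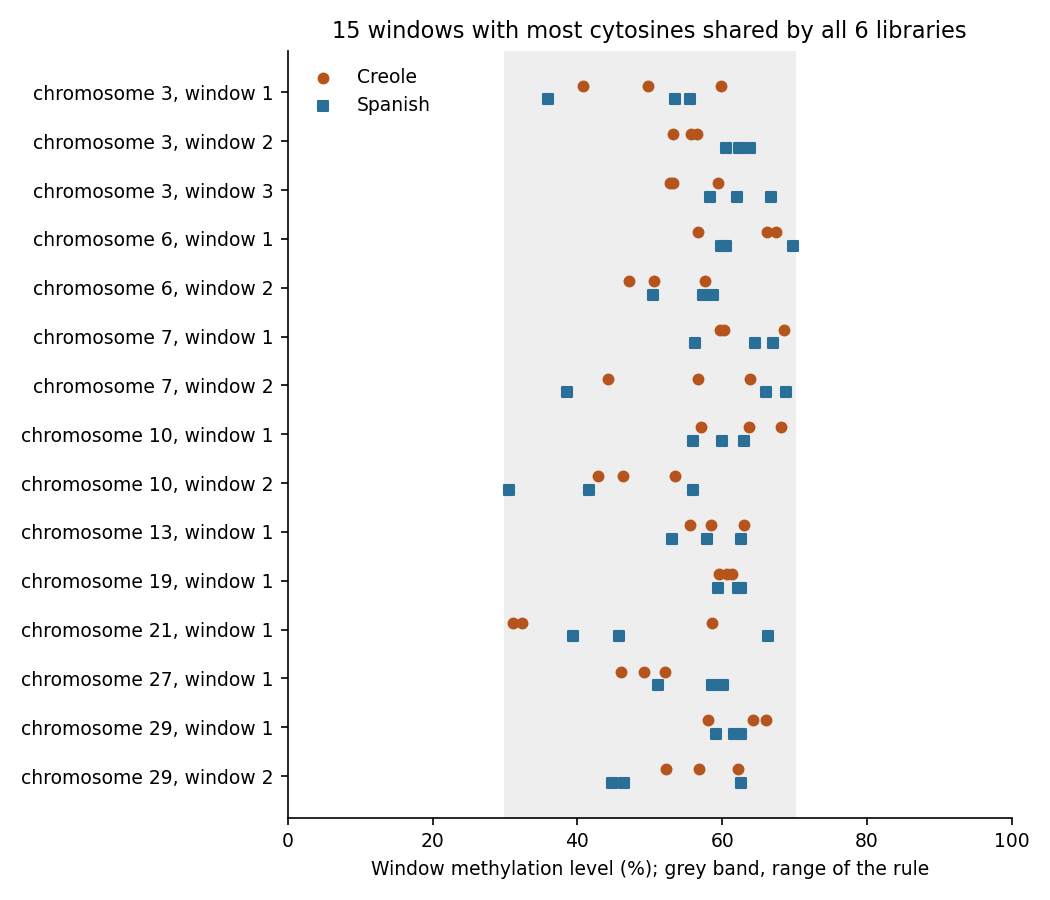
Methylation level (x axis, percent) of the 15 intermediate windows with the most cytosines shared by all 6 libraries (y axis, named by chromosome and in order along it), with 1 point for each animal. Creole and Spanish points overlap in 14 windows, and in the second window of chromosome 3 all Spanish points, from 60.6%, lie above the Creole points, which end at 56.5%. The groups did not overlap in 5.58% (Creole higher) and 5.66% (Spanish higher) of the 6905 windows of all 6 libraries at any level.

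At a few loci single cytosines were at or near intermediate levels in all 6 animals. The 10 windows of at least 4 libraries with the highest share of intermediate cytosines in the lowest library were picked after the values were seen and are a description. At chr25:30371001-30372000 the levels were 53.0%, 56.0% and 53.9% in Creole 1, 2 and 3 and 58.9%, 64.1% and 57.7% in Spanish 1, 2 and 3, with 29.4% to 50% of deep cytosines intermediate. It lost the range under both removals, with Spanish 2 at 72.7% without ends. The cytosine at 30371132 read 29.4%, 35.0% and 37.5% in the Creole animals and 44.4%, 41.3% and 40.3% in the Spanish animals, just below 30% in Creole 1. At chr18:12645001-12646000 the levels were 51.6%, 55.5% and 50.9% in the Creole animals and 44.6%, 62.1% and 64.8% in the Spanish animals. Its cytosine at 12645365 read 36.9%, 47.5% and 42.0% in the Creole animals and 42.7%, 55.3% and 58.6% in the Spanish animals, while the cytosine at 12645404 read 0 to 1.62%. The strand of this window's cytosines shared by all 6 libraries could not be read. The removal of end cytosines left its levels unchanged, so staying in the range there is no check. The window lost the range without outermost CpGs.

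Few intermediate windows had a measured neighbour. Most neighbours were above 70%, but more were intermediate than beside other tested windows. A tested window directly beside them existed for 247 (19.9%), against 31.6% of other tested windows. The neighbours had a median level of 72.2% against 67.3%, and 32.2% of them read 30 to 70% against 18.3% of the neighbours of other tested windows. Above 70% were 56.9% against 47.0%, and below 30% were 10.8% against 34.7%. Of the 48 intermediate windows with a tested window on both sides, 28 had at least 1 neighbour at 30 to 70%, 18 had both above 70%, 0 had both below 30% and 2 had 1 of each. Among 1523 such other windows, 510 had at least 1 neighbour at 30 to 70%, 635 had both above 70%, 271 both below 30% and 107 had 1 of each. So 2 of 48 lay at a step from high to low methylation. There were 10 runs of adjacent intermediate windows, each 2 windows long. At chr13:48999001-49000000, beside the narrow window described above, the levels were 63.0%, 55.6% and 58.4% in Creole 1, 2 and 3 and 62.6%, 57.9% and 53.0% in Spanish 1, 2 and 3, so all levels of the pair lay between 53.0% and 63.3%. The pair at chr11:79835001-79837000 was read at unequal depth. Its first window had 30157, 25621 and 10623 calls in Creole 1, 2 and 3 against 834, 2214 and 1250 in Spanish 1, 2 and 3. That window read 49.6%, 50.8% and 52.5% in the Creole animals and 58.0%, 57.7% and 55.5% in the Spanish animals. These did not overlap, as in 5.66% of the 6905 windows of all 6 libraries at any level with Spanish higher. The second window of the pair read 63.3%, 51.2% and 57.4% and 50.7%, 54.3% and 61.1%, which overlapped. Neither of the 2 stayed in the range without end cytosines, but both did without outermost CpGs. Of other make was the pair at chr1:145135001-145137000. It had 3 cytosines in most libraries, and its first window read 65.1%, 33.4% and 33.4% in the Creole animals and 66.7% and 66.9% in Spanish 2 and 3, while its second window read 66.7% in all 4 measuring libraries and 0% of deep cytosines were intermediate in either. Joining windows no more than 50 kb apart gave 11 groups of at least 4, with 58 windows in all, of which 41 were measured in all 6 libraries and 15 stayed in the range under both removals. The largest, chr29:19401001-19448000, held 8 intermediate windows among 29 tested, of which 0 were below 30% and 5 above 70%. At chr25:35453001-35467000, 4 of 8 tested windows were intermediate. By chromosome, the share of tested windows that were intermediate ran from 1.69% on chromosome 18 to 5.13% on chromosome 1.

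Gene names were available only for ranges in the authors' deposited table of differentially methylated regions, so most intermediate windows have no gene here. Of its 247 autosomal gene ranges, 8 held intermediate windows, 10 windows in all. KCNK9 encodes a potassium channel of the K2P family and is imprinted in human and mouse, where the maternal copy is expressed. Its range (chr14:4644332-4741649) held 2 intermediate windows among 10 tested, of which 6 were above 70% and 0 below 30%. The window chr14:4731001-4732000 read 52.8%, 58.6% and 48.1% in Creole 1, 2 and 3 and 64.9% and 69.3% in Spanish 1 and 2. The window chr14:4690001-4691000 read 37.1% and 67.7% in Creole 1 and 3 and 50% and 57.4% in Spanish 1 and 2. Neither stayed in the range without end cytosines. In the authors' deposited table the region listed for KCNK9 lies elsewhere, at chr14:4641575-4641626, with 9% in Creole and 63% in Spanish animals. KCNQ1, another imprinted potassium channel gene, had 0 intermediate windows among 4 tested in its range. Of the 86 symbols on a list of imprinted genes, these 2 name a range in the table. Of 99 homeobox gene symbols, 4 name a range, and 0 of those ranges held an intermediate window. Lists of clustered protocadherins, germline genes, lymphocyte genes and neutrophil, monocyte and NK cell genes had 0 ranges in the table. The table names 153 of the 247 ranges by UniProt or Ensembl identifiers, which were not matched to the lists.

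NRXN2, a neurexin of presynaptic membranes, held 2 intermediate windows among 13 tested in its range (chr29:43476403-43576128). At chr29:43574001-43575000 the levels were 65.6% and 62.0% in Creole 1 and 3 and 59.1%, 31.9% and 49.1% in Spanish 1, 2 and 3. At chr29:43547001-43548000, with 3 to 6 cytosines, they were 33.5% and 33.3% in Creole 1 and 2 and 47.9% and 66.7% in Spanish 2 and 3. ARHGEF19 held 1 among 4 tested, chr2:136490001-136491000, at 51.7% and 42.9% in Creole 1 and 2 and 54.2%, 39.1% and 64.3% in Spanish 1, 2 and 3. That window stayed in the range under both removals. The other 5 ranges, listed as HPCL1_BOVIN, Q3MU93_BOVIN, A0JNH7_BOVIN, B0JYL2_BOVIN and ENSBTAG00000047937, held 1 each.

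The authors' deposited table lists regions that differ between the groups, whereas the rule held every measuring library to 30 to 70%. The rule itself therefore favours a low overlap with these regions. No count of all tested windows in them is given here, so nothing is read from the overlap. Of the 316 autosomal regions in the table, 185 held a tested window and 1 overlapped an intermediate window. The window was chr5:70223001-70224000, in a region that the authors' deposited table lists under RFX4, a transcription factor of brain development. The listed distance to the start of that gene is -99832 bp. In the authors' deposited table the region there (chr5:70223309-70223366) has 4 CpGs, with 96% in Creole and 33% in Spanish animals. Over the whole window the levels were 48.6%, 51.6% and 34.7% in Creole 1, 2 and 3 and 50.8%, 33.4% and 37.5% in Spanish 1, 2 and 3, and the groups overlapped. No cytosine there was covered in all 6 libraries, and Spanish 1 held 6 cytosines where the others held 25 to 41, so the levels of different animals rest partly on different cytosines. The window stayed in the range without end cytosines and lost it without outermost CpGs. CpG islands listed in the authors' deposited table held 12 intermediate windows. Of these, 8 lay among 96 tested windows of an island listed with 203948 bp (chr3:82707910-82911857) and 3 among 16 of an island of 51157 bp (chr4:28956148-29007304). The window chr4:28974001-28975000 read 46.2%, 48.1% and 42.8% in Creole 1, 2 and 3 and 45.0%, 51.7% and 48.7% in Spanish 1, 2 and 3, had 20.0% to 33.3% intermediate cytosines per library and stayed in the range under both removals.

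The study asked whether methylation differs between Creole and Spanish cattle. For the intermediate windows the rule itself bounds any difference at 40 points, so their counts are given beside the background and nothing is read from a low count. With limma over all tested windows, 0 of the 1241 intermediate windows were called at a Benjamini-Hochberg adjusted p under 0.05, and 0.0% of all 39647 windows were. At an unadjusted p under 0.05 there were 3 intermediate windows (0.242%), all higher in Spanish animals, beside 4.93% of all tested windows. With edgeR's quasi-likelihood test on cytosines shared by all 6 libraries, 0 of 220 intermediate windows and 0.0% of 4561 windows were called, and at an unadjusted p under 0.05 there were 11 intermediate windows (5%), of which Creole animals were higher in 1 and Spanish animals in 10, beside 4.96% of all.

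The mean level over the 188 windows of all 6 libraries was 55.7%, 55.5% and 52.5% in Creole 1, 2 and 3, against 55.9%, 57.9% and 56.6% in Spanish 1, 2 and 3. The groups did not overlap. Creole animals averaged 54.6% ± 1.75 and Spanish animals 56.8% ± 1.02 (SD, n = 3 each), a Creole minus Spanish difference of -2.27 points. The levels compared are those that chose the windows, so the difference is a description with no test. It was -1.17 points without Spanish 2 and -0.87 points as a mean of cytosine levels. The groups overlapped in 10 of the 14 other settings tried with 6 libraries. By window, the groups did not overlap in 0 windows with Creole higher and 24 with Spanish higher, beside 5.58% and 5.66% of the 6905 windows of all 6 libraries at any level. Of the 1241 windows, the fitted log2 odds were higher in Creole for 489 and higher in Spanish for 752, so 39.4% were higher in Creole beside 49.9% of all tested windows. The median Creole minus Spanish difference in log2 odds was -0.10 in intermediate windows and -0.0028 in all tested windows. On cytosines shared by all 6 libraries, 35% of the 220 intermediate windows were higher in Creole beside 44.0% of the 4561 tested windows, with median log2 changes of -0.16 and -0.090 in edgeR's fit, so part of this tilt towards Spanish animals was shared by all tested windows there. Kit and lane differ with the groups, and their part in it was not tested.

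The smallest p belonged to chr2:133046001-133047000, with 47.0%, 33.3% and 33.3% in Creole 1, 2 and 3 and 63.8%, 63.8% and 66.7% in Spanish 1, 2 and 3 (limma, Creole minus Spanish -1.57 ± 0.55 in log2 odds, SE; adjusted p = 0.947). The groups did not overlap, but Creole 2 and 3 and Spanish 3 held 3 cytosines each, where the others held 10 to 17. At chr1:5273001-5274000, with 17 to 68 cytosines per library, the levels were 42.6%, 48.6% and 41.8% in the Creole animals and 69.6%, 69.5% and 61.7% in the Spanish animals (-1.35 ± 0.53; limma, adjusted p = 0.947). The remaining windows with Spanish higher among the 5 of smallest p were chr28:43458001-43459000, chr21:48787001-48788000 and chr5:106903001-106904000. With Creole higher, the smallest p belonged to chr21:70614001-70615000, with 59.3%, 59.8% and 66.8% in Creole 1, 2 and 3 and 36.5% and 33.3% in Spanish 2 and 3 (1.54 ± 0.64; limma, adjusted p = 0.947). The next 4 were chr28:9333001-9334000, chr11:100194001-100195000, chr7:91912001-91913000 and chr5:70001-71000.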

How the data were processed

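The members, lists and tests were chosen with earlier results of these data known. The labels' protocols give MspI digestion, end fill-in, bisulfite treatment and PCR. The submitters' processing notes name Trim Galore, Bismark, methylKit and UMD3.1, without versions. Settings and duplicate handling were not given in the sources used here. The deposited coverage files give, for each library, counts of methylated and unmethylated calls and the percent methylated at each cytosine, strands apart and not normalized. The authors' deposited region table gives group means as a fraction and an area score, which was not used. It has 0 unused columns of single samples.

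Calls were summed per window and the level taken as methylated over all calls. All windows measured in 2 or more libraries per group entered limma 3.58.1 on log2((methylated + 2)/(unmethylated + 2)), with unmeasured libraries missing. Windows with 3 cytosines shared by all 6 libraries and 10 calls in each entered edgeR 4.0.16 (quasi-likelihood, R 4.3.3). Both used Benjamini-Hochberg adjustment, threshold 0.05, and were tested on simulated data. A covered stretch ended at a gap of 150 bp, and end cytosines needed 5 calls. Python 3.11.15, numpy 2.4.6, pandas 2.3.3, scipy 1.17.1 and matplotlib 3.10.9 made the rest.

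Windows named are the 15 of all 6 libraries with most shared cytosines, the 5 narrowest and 5 widest, those in a deposited region or named gene range, those of smallest p (5 per direction), adjacent runs, and those nearest the limits. Windows described for intermediate cytosines or listed islands were picked after their values were seen. No genome of UMD3.1 was used here, so no sequence is shown. No 2 libraries shared more than 4.37% identical counts at common cytosines.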

Additional observations from a re-analysis of the deposited data

Results flagged for a closer look

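Chromosome X lay outside the rule. Applied there, the rule finds 24 of 666 tested windows (3.60%, 95% Wilson interval 2.43 to 5.31%) at 30 to 70% in every measuring library, beside 3.13% of autosomal windows (2.96 to 3.31%). The animals are bulls, which carry a single X. Without end cytosines the rule finds 12 of 593 windows on X (2.02%, 1.16 to 3.50%) and 1.07% of autosomal windows (0.965 to 1.18%). The source of the X windows was not tested.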

How the results depend on the processing

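The rule found 1241 windows. It found 51 with limits of 40 and 60% and 5096 with 20 and 80%, 1906 with 20 calls and 679 with 100, 505 with 5 cytosines, 188 when all 6 libraries had to measure a window, 376 without end cytosines, 199 without outermost CpGs and 824 with only cytosines common to a window's measuring libraries. In these settings the mean of the library medians, 60.0%, became 50.4% and 66.1%, 62.3% and 57.9%, 56.3%, 57.0%, 58.2% and 53.3%, and moved by less than the spread between libraries in the last. Leaving out single libraries gave 445 to 1017 windows (fewest without Creole 1) and medians of 57.8 to 59.8%. Both libraries left in the reduced group then had to measure a window. The share of intermediate cytosines, 10.9%, was 17.4% with all 6 libraries, 18.8% without outermost CpGs and 16.2% when counted from 20 to 80%, and 11.9 to 12.9% without single libraries. The share of shallow values in range stayed within the spread between libraries in the settings tried. The Creole minus Spanish difference, -2.27 points, kept its sign but ran from -3.52 (without outermost CpGs) to -0.87 (mean of cytosine levels) with 6 libraries, was -1.30 with windows of 2000 bp, and ran from -2.48 to -1.17 (without Spanish 2) without single libraries. The groups overlapped in 10 of these 14 settings with 6 libraries. The single window in a deposited region became 6 with 20 and 80%, 0 with 40 and 60%, a shifted grid, windows of 500 or 2000 bp, common cytosines or no outermost CpGs, and 1 to 2 without single libraries. Counts called between groups stayed at 0, except that on shared cytosines edgeR's likelihood ratio test called 56 windows (2 of them intermediate) and limma 1 (0 intermediate). No paired analysis was possible because the replicate numbers only name the animals in accession order and the groups hold different animals. Depth limits the rest: most windows were measured in 4 or 5 libraries, a cytosine needed only 10 calls, and calls from copied molecules are not independent.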
